A study of Homo sapiens with 5 samples.

Results

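The Notch pathway was followed through 10 genes in HCC827 lung adenocarcinoma cells and in HCC827/GR cells, their gefitinib-resistant derivative. These were the receptors NOTCH1, NOTCH2, NOTCH3 and NOTCH4, the ligands JAG1, JAG2, DLL1 and DLL4, and the target genes HES1 and HEY1. A gene was taken as the row that carries its symbol in the deposited expression table, and 9 of the 10 were found, each with a single row among 37181. JAG2 was not found, because its transcripts were joined with those of its neighbours NUDT14 and AL512356.1 in 1 row named NUDT14. That row had 2.68, 3.73 and 4.16 FPKM (fragments per kilobase of transcript, scaled to the mapped fragments of the library) in HCC827/GR cells and 4.35 and 5.44 in HCC827 cells, and none of it could be assigned to JAG2.

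HCC827 is a human line with a deletion in exon 19 of EGFR, which both groups carry, and it is sensitive to the EGFR inhibitor gefitinib. HCC827/GR cells were selected from it with stepwise doses of gefitinib for longer than 6 months. RNA sequencing of replicates 1, 2 and 3 of HCC827/GR and of replicates 2 and 3 of HCC827 was used here. The sources used here do not say whether HCC827/GR is a single clone, whether gefitinib was present at harvest, or whether replicates were separate cultures, so the p-values measure the spread between these libraries, which may be technical.

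Notch receptors are single-pass proteins that are activated by ligands of the Jagged and Delta-like families on a neighbouring cell. Ligand binding exposes the receptor to cleavage by ADAM proteases and then by γ-secretase, and the freed intracellular part enters the nucleus, where it joins the DNA-binding protein RBPJ and a Mastermind coactivator and switches on HES and HEY genes. These targets encode basic helix-loop-helix repressors. In the lung epithelium the pathway is known for directing the choice between secretory and ciliated cells and for holding back neuroendocrine differentiation.

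No Notch gene passed the test at an adjusted p under 0.05, but the genes did not all lie on the same side. NOTCH1 was higher in each HCC827/GR library than in either HCC827 library, whereas NOTCH3, JAG1 and HES1 were lower in each. NOTCH2, the most abundant of the receptors, overlapped between the groups. NOTCH4, DLL1, DLL4 and HEY1 stayed below 0.5 FPKM in every library and were not in that test. In the wider pathway, LFNG, TLE1 and TLE4 rose, and DTX4 and TLE3 fell. The calls of LFNG, TLE3 and TLE4 were lost when any 1 library was left out and that of DTX4 without HCC827 replicate 2, and DTX4 and TLE4 were high enough to be tested in 1 of the lines only. Calls over the whole table also fell, from 851 higher and 924 lower to 202 and 287 without HCC827/GR replicate 1. Without HCC827/GR replicate 3 they were 485 and 477. No call of the wider pathway held with Ballgown's model or with the replicate block. Of all 16189 rows tested, that model called 4 higher and 9 lower, and the block called 0. RNA of a whole culture was measured, so fewer cells that express a gene and less of its RNA per cell cannot be told apart.

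**Figure D1:**
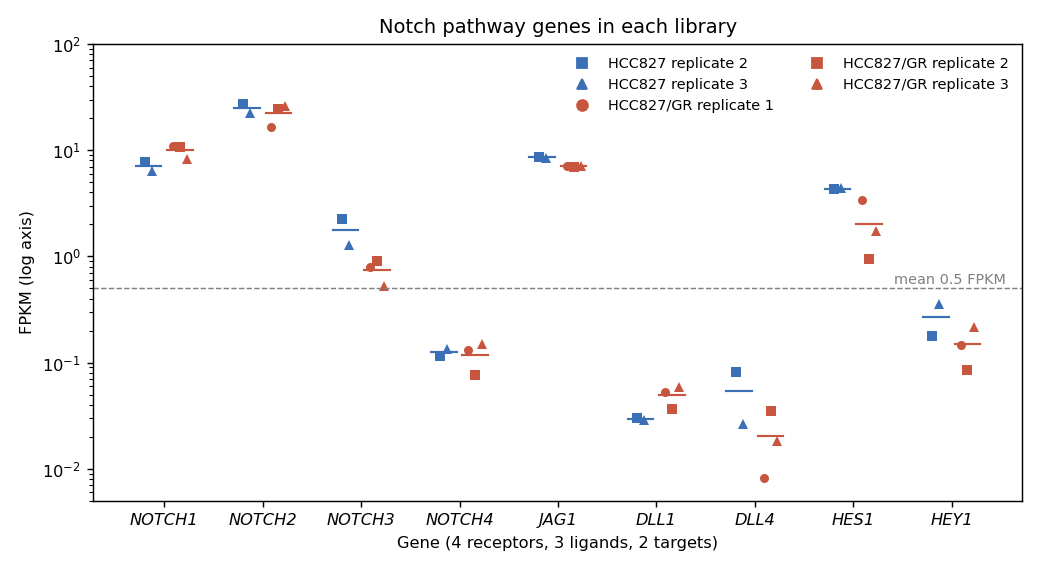
FPKM of the 9 Notch genes found in the table, on a log axis, with 1 point per library and a line at the mean of each group. NOTCH2 is highest in both cell lines, HES1 spreads from 0.953 to 3.43 FPKM in HCC827/GR cells, and 4 genes lie below the dashed line, which marks the mean of 0.5 FPKM needed for the test.

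The libraries could be compared as follows. FPKM values carry no read numbers, so depth is unknown for all 5 libraries and no counting error can be given. Between 23.9% and 26.4% of the rows were listed at 0 in a library. Pairs of libraries from one line correlated by 0.913 to 0.927 over log2(FPKM + 1), and pairs across the lines by 0.851 to 0.873. Genes are not independent replicates, and these values only describe the libraries. Of 6 markers of epithelium, 5 were listed, and their summed level was between 443 and 573 FPKM in HCC827/GR cells and between 1063 and 1182 FPKM in HCC827 cells, so both lines expressed them. EPCAM, KRT18, KRT19 and CDH1 fell, and KRT8 had an adjusted p of 0.101 by limma. With each library left out, the adjusted p was 0.0195 to 0.0353 for EPCAM, but 0.0896 to 0.155 for KRT18, and it reached 0.0522 for KRT19 and 0.0789 for CDH1. The lung lineage factor NKX2-1, whose row also holds transcripts of SFTA3 and AL132857.1, fell by 1.64 on the log2 scale (adjusted p = 0.0115 by limma, up to 0.0798 with a library left out). Its values were 0.415 to 0.963 FPKM in HCC827/GR and 4.003 and 4.60 FPKM in HCC827 cells. Over all alternative fits, by limma or Ballgown's model, the adjusted p reached 0.171 for EPCAM and 0.128 for NKX2-1. Neither call thus held in all of them.

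Since DLL4 and NOTCH4 mark endothelium, and DLL3 and HES6 of the wider list neuroendocrine cells, markers of these cells were read as well. Of 6 endothelial markers, CDH5, VWF, KDR and TEK were under 0.1 FPKM in all libraries and ERG was listed at 0. The exception was PECAM1, with 4.34 and 3.32 FPKM in HCC827 cells and listed at 0 in the HCC827/GR libraries, from the highest of 10 rows with that symbol. Of 6 neuroendocrine markers 4 were listed, and their sum was between 0.161 and 0.271 FPKM in HCC827/GR and between 0.493 and 0.548 FPKM in HCC827 cells, most of it from NEUROD1, whose row also holds transcripts of CERKL. Fibroblast markers summed to between 0.667 and 1.15 FPKM over all libraries. Of 5 leukocyte markers 4 were listed, and they summed to between 31.99 and 40.0 FPKM over all libraries, nearly all from a row named CD68 that joins 5 further genes, while PTPRC and LYZ were under 0.1 FPKM. The B cell gene CD79A had 0.0245 to 0.147 FPKM in HCC827/GR and 1.08 and 1.03 FPKM in HCC827 cells. The part of other cell types in the Notch values was not tested.

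A comparison across the whole table set the Notch genes in context. The rows with a mean of at least 0.5 FPKM, 16189 in number, were compared on log2(FPKM + 1) by limma (two-sided, moderated, with the prior variance trended on the mean), and p-values were adjusted over all of them by Benjamini and Hochberg. A log2 fold change on this scale is the difference HCC827/GR minus HCC827 and makes the change of weakly expressed genes look smaller. Of all rows, 5.26% were higher and 5.71% lower in HCC827/GR cells at an adjusted p under 0.05. The methods of the study used a 2-fold change in either direction with an unadjusted p under 0.05. With p-values from limma and fold changes on log2(FPKM + 1), 2.96% were higher and 3.97% lower by these thresholds. The groups did not overlap in 22.8% of rows that were higher and in 23.4% that were lower.

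Of the 9 Notch genes found, 5 reached that mean, and 0 of them passed the adjusted test or, on this scale, the thresholds of the study's methods. By the ratio of mean FPKM, NOTCH3 passed those thresholds, being 2.37-fold higher in HCC827 cells with an unadjusted p of 0.0273 by limma. An unadjusted p under 0.05 was reached by 3, which were NOTCH1, NOTCH3 and JAG1. With a library left out this became HES1 alone without HCC827/GR replicate 1, NOTCH3 alone without HCC827/GR replicate 2 or HCC827 replicate 3, NOTCH1 alone without HCC827/GR replicate 3, and 0 genes without HCC827 replicate 2. With the linear model of Ballgown, the tool of the study, 0 had an adjusted p under 0.05 and 2, NOTCH1 and JAG1, an unadjusted one. Of all 16189 rows this model called 4 higher and 9 lower at an adjusted p under 0.05. The share of all rows with an unadjusted p under 0.05 was not counted, so the unadjusted counts here and below have nothing to be set against. The groups did not overlap for 4 of the 5, with 1 higher and 3 lower, against 22.8% and 23.4% of all rows. The median log2 fold change of the 5 was -0.25, against 0.00143 over all rows tested, and 5 genes are too few to read more from it.

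Among the receptors, NOTCH1 (ENSG00000148400, chromosome 9 from 136494433 to 136545786 on the minus strand of GRCh38) was measured at 11.1, 10.8 and 8.31 FPKM in replicates 1, 2 and 3 of HCC827/GR and at 7.69 and 6.38 FPKM in HCC827 replicates 2 and 3. The lowest HCC827/GR library lay above the highest HCC827 library by less than the spread within either group. The HCC827/GR mean of 10.1 ± 1.52 FPKM (SD, n = 3) was 1.43 times the HCC827 mean of 7.04 ± 0.926 FPKM (SD, n = 2). The log2 change was 0.46 (adjusted p = 0.159 by limma, SE 0.16), and with each library left out in turn it ran from 0.34 to 0.57.

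NOTCH2 (ENSG00000134250, chromosome 1 from 119911553 to 120069626, minus strand) had 16.7, 24.3 and 26.2 FPKM in HCC827/GR and 27.5 and 22.6 FPKM in HCC827 cells. HCC827/GR replicate 1 was the lowest of the 5 libraries, and the other values of the groups overlapped. The log2 change was -0.17 (adjusted p = 0.679 by limma, SE 0.23), and without HCC827/GR replicate 1 it was 0.0151, so the sign rested on that library. NOTCH2 has near-identical partial copies, the NOTCH2NL genes, with which reads could have been shared. Their row had between 2.21 and 2.70 FPKM over the 5 libraries, and the sharing itself was not tested.

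NOTCH3 (ENSG00000074181, chromosome 19 from 15159038 to 15200981, minus strand) is a receptor best known from vascular smooth muscle and also used by lung basal cells. It had 0.803, 0.903 and 0.531 FPKM in HCC827/GR and 2.26 and 1.28 FPKM in HCC827 cells. The groups did not overlap, but the HCC827 libraries differed from each other by more than the gap between the groups. The mean FPKM was 2.37-fold higher in HCC827 cells, and on log2(FPKM + 1) the change was -0.65 (adjusted p = 0.130 by limma, SE 0.21). It was -0.39 without HCC827 replicate 2 and -0.91 without HCC827 replicate 3. With a pseudocount of 0.1 in place of 1, which weighs low values more, the fold change was -1.12 and passed the study's thresholds, with an adjusted p that still lay above 0.05 (0.101 to 0.459 over all alternatives).

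NOTCH4 (ENSG00000204301, chromosome 6 from 32194843 to 32224067, minus strand), a receptor of endothelium, had between 0.0757 and 0.150 FPKM over all libraries. Its row also holds transcripts of the neighbouring gene GPSM3. At this level the groups overlapped.

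FPKM is scaled to transcript length, so the makeup of the receptors could be read within each library. NOTCH1 made up 38.6%, 30.0% and 23.6% of the summed FPKM of the receptors in HCC827/GR replicates 1, 2 and 3 and 20.5% and 21.0% in HCC827 replicates 2 and 3. All HCC827/GR libraries thus lay above both HCC827 libraries, replicate 3 by only a few percentage points. NOTCH3 made up 2.80%, 2.51% and 1.51% in HCC827/GR and 6.02% and 4.21% in HCC827 cells, again with no overlap. NOTCH2 held the largest share in every library, from 58.2% to 74.4%.

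In an exact permutation test over the 10 ways to place 3 of 5 libraries (two-sided), the p of the share was 0.2 for NOTCH1, with a difference of 9.98 percentage points, 0.4 for NOTCH2 (-7.13) and 0.1 for NOTCH3 (-2.84). With each library left out the difference ran from 6.05 to 13.5 percentage points for NOTCH1 and from -11.0 to -2.89 for NOTCH2, both smallest in size without HCC827/GR replicate 1. For NOTCH3 it ran from -3.75 to -1.94. The smallest p that this design allows is 0.1, so none could pass 0.05, and adjusted over the 7 receptor and ligand shares the lowest was 0.467. The receptors summed to 33.3 ± 4.01 FPKM (SD, n = 3) in HCC827/GR and 34.0 ± 5.02 FPKM (SD, n = 2) in the parental line, a difference smaller than the spread in either group (exact permutation p = 0.9).

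**Figure D2:**
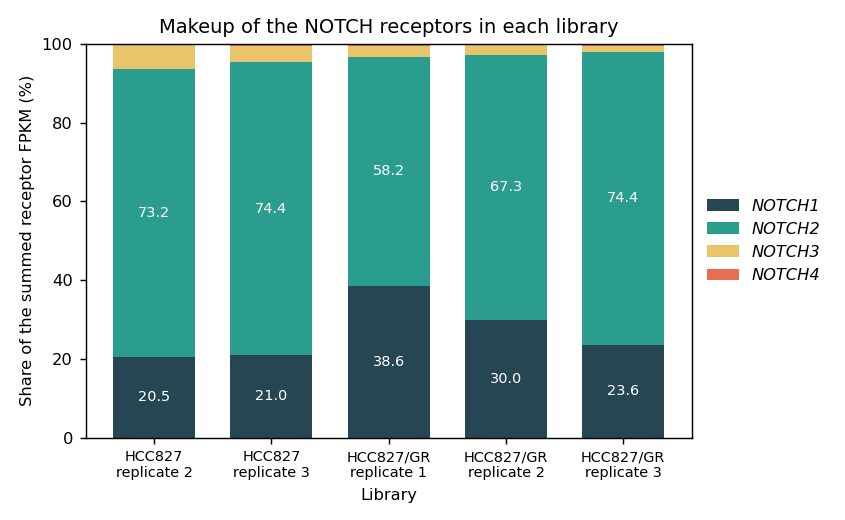
Share of each NOTCH receptor in the summed FPKM of the 4 receptors, in percent, with 1 bar per library. The NOTCH1 part runs from 23.6% to 38.6% in HCC827/GR libraries and is 20.5% and 21.0% in HCC827 libraries, while the NOTCH3 part is thinner in every HCC827/GR library.

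Among the ligands, JAG1 (ENSG00000101384, chromosome 20 from 10637684 to 10673999, minus strand) made up between 98.7% and 99.4% of the summed FPKM of the 3 ligands found. It had 7.17, 6.91 and 7.09 FPKM in HCC827/GR and 8.65 and 8.48 FPKM in HCC827 cells. The values within a group lay close together, and the groups stood apart by more than 1 FPKM. The log2 change was -0.25 (adjusted p = 0.138 by limma, SE 0.082), a ratio of 1.21 in favour of HCC827 cells, and it stayed between -0.28 and -0.23 under all alternatives.

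DLL1 (ENSG00000198719, chromosome 6 from 170282206 to 170306565, minus strand) had 0.0532, 0.0366 and 0.0584 FPKM in HCC827/GR and 0.0301 and 0.0286 FPKM in HCC827 cells. DLL4 (ENSG00000128917, chromosome 15 from 40929333 to 40939073, plus strand), the ligand of sprouting vessels, had 0.00816, 0.0349 and 0.0182 FPKM and 0.0810 and 0.0265 FPKM. DLL1 was higher in each HCC827/GR library and DLL4 overlapped, but both lay below the mean of 0.5 FPKM needed for the test. With no filter the adjusted p by limma was 0.487 for each.

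In HCC827 cells JAG1 stood above NOTCH1 in FPKM, and in HCC827/GR cells NOTCH1 stood above JAG1. The ratio of NOTCH1 to JAG1 was 1.54, 1.56 and 1.17 in HCC827/GR replicates 1, 2 and 3 and 0.889 and 0.753 in HCC827 replicates 2 and 3. This ratio was chosen after the values were seen, and an exact permutation test (two-sided) gave p = 0.2, where 0.1 is the smallest p possible. In both lines NOTCH2 came first, then NOTCH1 and JAG1, then HES1, NOTCH3, HEY1 and NOTCH4. The Delta-like ligands came last, with DLL1 before DLL4 in HCC827/GR cells and DLL4 before DLL1 in HCC827 cells. Neighbours in this order overlapped only for HEY1 and NOTCH4 in HCC827/GR cells and for DLL4 and DLL1 in HCC827 cells.

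HES1 (ENSG00000114315, chromosome 3 from 194136145 to 194138732, plus strand) is the standard target gene of the pathway, and its promoter is shown because it is where RBPJ and the receptor act. The 250 bases before the RefSeq start site (GRCh38.p14, chr3:194135898-194136147, plus strand, 5′ to 3′) read as follows, with each TGGGAA, the core of the sequence that RBPJ recognizes, in capitals.
HES1 promoter: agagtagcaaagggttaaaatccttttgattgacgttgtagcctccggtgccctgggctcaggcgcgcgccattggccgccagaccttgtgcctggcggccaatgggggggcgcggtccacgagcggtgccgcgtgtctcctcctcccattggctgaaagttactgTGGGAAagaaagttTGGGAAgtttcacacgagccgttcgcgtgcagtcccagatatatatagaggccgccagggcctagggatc

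TGGGAA was searched on both strands and occurred 2 times here, on the plus strand, starting at -84 and -70 when the last base before the start site is -1. Of all 35116 RefSeq promoter windows of this length, 20.8% held it at least once and 2.90% at least 2 times. The first match is also a match of the longer GTGGGAA, which 5.43% of the windows held. CACNAG, the N box to which HES1 protein itself binds, occurred 3 times, and 32.04% of the windows held it. A window was at hand for 8 of the 10 genes, all but DLL1 and HEY1, and TGGGAA was found in 1 of them, that of HES1. A match of letters does not show that a site was bound in these cells.

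HES1 had 3.43, 0.953 and 1.73 FPKM in replicates 1, 2 and 3 of HCC827/GR and 4.32 and 4.37 FPKM in HCC827 replicates 2 and 3. Both HCC827 libraries were nearly equal, and each HCC827/GR library was lower, with a spread among them that was wider than the step from their highest value to HCC827 cells. The mean FPKM was 2.13-fold higher in HCC827 cells. The log2 change was -0.90 (adjusted p = 0.198 by limma, SE 0.36, 0.0750 to 0.618 over all alternatives).

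HCC827/GR replicate 1 had most weight in this value. Without it the log2 fold change of HES1 was -1.21, which passed the study's thresholds (adjusted p = 0.0750 by limma), while without HCC827/GR replicate 2 it was -0.62. The same HCC827/GR replicate 1 had the largest share of NOTCH1 among the receptors and the lowest NOTCH2. Whether these are linked was not tested.

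HEY1 (ENSG00000164683, chromosome 8 from 79764010 to 79767863, minus strand), the second target, had 0.147, 0.0855 and 0.217 FPKM in HCC827/GR and 0.176 and 0.360 FPKM in HCC827 cells. The groups overlapped at this low level. Of the further targets in the wider list, HES2, HES5, HEY2 and HEYL stayed below 0.5 FPKM in every library, and NRARP, a feedback inhibitor of the pathway, was listed at 0 in all but HCC827/GR replicate 2, where it had 0.969 FPKM. HES7, HES4 and HES6 were tested, and HES7, known from the segmentation clock, had the largest change among them, with 3.52, 3.87 and 3.75 FPKM in HCC827/GR and 1.44 and 2.83 FPKM in HCC827 cells. Its log2 change was 0.62 (adjusted p = 0.145 by limma, SE 0.21), and it was 0.30 without HCC827 replicate 2 and 0.95 without HCC827 replicate 3. In each HCC827/GR library HES7 stood above HES1.

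The wider pathway was read from a list of 57 further genes. Of these, 51 were found, 9 stayed below the mean of 0.5 FPKM and 42 were tested. At an adjusted p under 0.05, 3 of the 42 were higher and 2 lower in HCC827/GR cells, or 7.14% and 4.76%, near the 5.26% and 5.71% of all rows. By the study's thresholds, with p from limma and fold changes on log2(FPKM + 1), 0 were higher and 1, DTX4, lower. By the ratio of mean FPKM in its place, TLE1 (2.03) and TLE4 (24.5) also changed 2-fold upward. TLE3 did so downward, 2.08-fold higher in HCC827 cells, and all had an unadjusted p under 0.05 by limma. The share of all rows by that ratio was not counted. With Ballgown's model 0 of the 42 had an adjusted p under 0.05 and 7 an unadjusted one, with the 5 called genes among them. Of all 16189 rows that model called 4 higher and 9 lower at an adjusted p under 0.05. With so few calls, 0 of 42 says little about these genes. The groups did not overlap for 11 that were higher and 4 that were lower, or 26.2% and 9.52%, against 22.8% and 23.4% of all rows. The median log2 fold change of the 42 was 0.09, against 0.00143 over all rows tested.

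**Figure D3:**
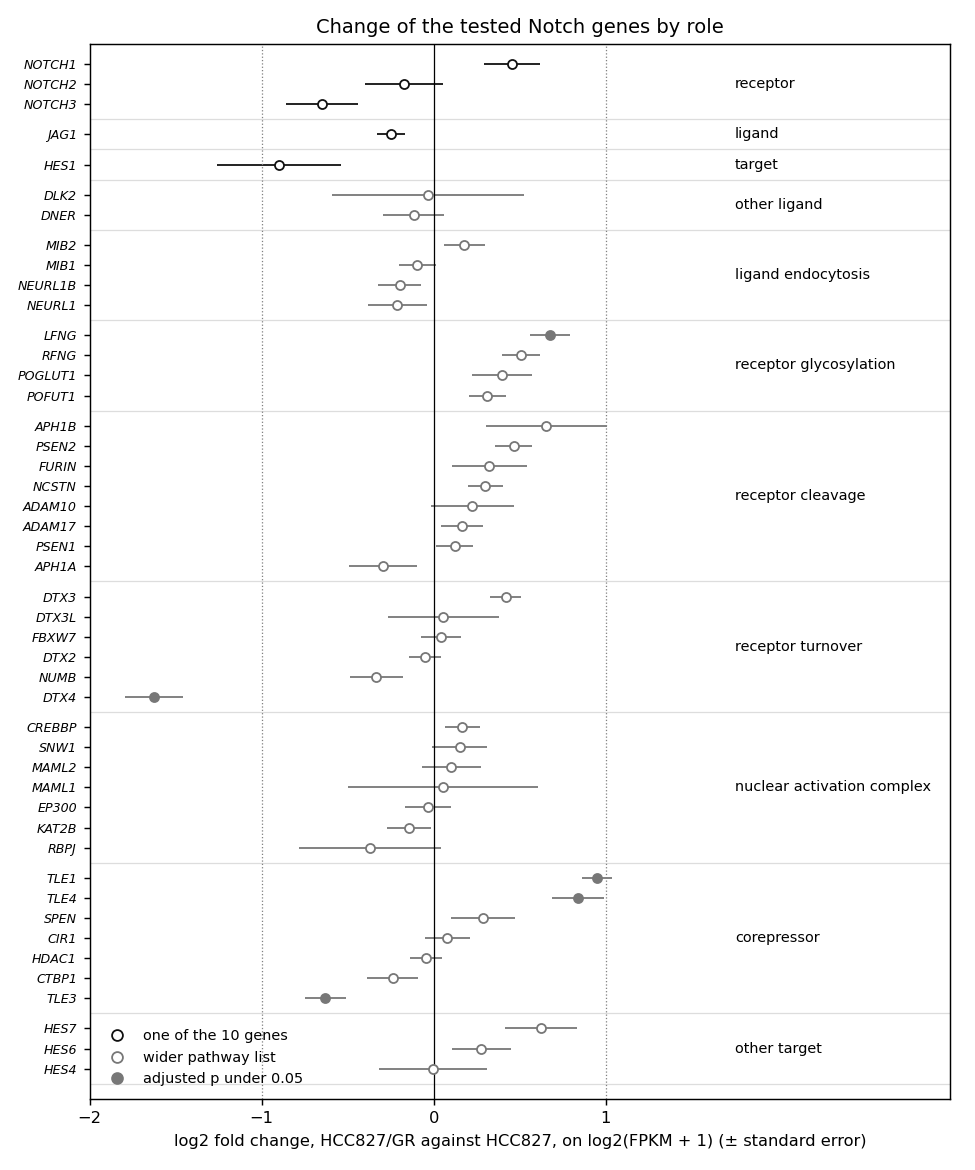
log2 fold change of HCC827/GR against HCC827 with its standard error for the 5 Notch genes and the genes of the wider list that were tested, with 1 corepressor not shown, grouped by role, where filled points have an adjusted p under 0.05 and dotted lines mark a change of 1. The receptor glycosylation genes all lie to the right of 0, DTX4 lies farthest to the left, and TLE1 and TLE3 lie on opposite sides.

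The genes that add sugars to the receptors are described together, a choice made after their values were seen. POFUT1 and POGLUT1 attach fucose and glucose to the EGF repeats of Notch, and the Fringe enzymes LFNG, MFNG and RFNG extend the fucose and so set which ligands a receptor answers. Of the 4 genes found, all were higher in each HCC827/GR library than in either HCC827 library, as were 22.8% of all rows. The adjusted test was passed by 1 of the 4, against 5.26% of all rows. An unadjusted p under 0.05 was reached by 3, for which no share of all rows was counted. Their median log2 fold change was 0.45, against 0.00143 over all rows, and so few genes chosen in this way allow no test of the group.

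LFNG rose. It had 14.0, 11.5 and 12.4 FPKM in replicates 1, 2 and 3 of HCC827/GR and 7.81 and 7.23 FPKM in HCC827 replicates 2 and 3, a ratio of the means of 1.68. Its log2 change was 0.68 (adjusted p = 0.0322 by limma, SE 0.12). The call was lost when any 1 of the 5 libraries was left out, where calls over the whole table fell as well. The log2 change then stayed between 0.61 and 0.74. The call was also lost with no filter (adjusted p = 0.0521 by limma).

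RFNG had 4.51, 4.26 and 4.55 FPKM in HCC827/GR and 3.15 and 2.53 FPKM in HCC827 cells, a log2 change of 0.51 (adjusted p = 0.0541 by limma, SE 0.11). POFUT1 had between 14.2 and 15.7 FPKM in HCC827/GR and 11.2 and 12.9 FPKM in HCC827 cells, with an adjusted p of 0.147. POGLUT1 had between 1.85 and 2.90 FPKM in HCC827/GR and 1.41 and 1.78 FPKM in HCC827 cells, with an adjusted p of 0.232. The gap between the groups exceeded the spread within each of them for RFNG, but not for POFUT1 or POGLUT1. MFNG was not found under its own name, since its transcripts were joined with those of CARD10.

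DTX4 fell. It encodes a Deltex ubiquitin ligase, of the family that acts on Notch receptors in endosomes. It had 0.275, 0.0848 and 0.0698 FPKM in HCC827/GR and 2.92 and 2.15 FPKM in HCC827 cells, and the mean FPKM was 17.7-fold higher in HCC827 cells. The log2 change was -1.63 (adjusted p = 0.0111 by limma, SE 0.17), and without HCC827 replicate 2 the adjusted p was 0.0509. The call was also lost with Ballgown's model (adjusted p = 0.170) and with the replicate block (adjusted p = 0.135 by limma). Both settings called few or no rows of the whole table. DTX4 reached the mean of 0.5 FPKM only through HCC827 cells, and with a pseudocount of 0.1 its log2 change was -3.52. Of the other 5 tested genes of receptor turnover, 0 passed the adjusted test, among them DTX3, with 13.1 to 14.3 FPKM in HCC827/GR and 10.1 FPKM in both HCC827 libraries (adjusted p = 0.0511). NUMB, which sorts Notch away from the membrane, had 2.63 to 3.60 FPKM in HCC827/GR and 3.80 and 4.74 FPKM in HCC827 cells (adjusted p = 0.250).

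The Groucho corepressors of the TLE family, which HES proteins recruit to silence genes, went in both directions. TLE1 had 18.0, 19.1 and 18.6 FPKM in HCC827/GR and 8.76 and 9.51 FPKM in HCC827 cells, a ratio of the means of 2.03. It rose by 0.95 on the log2 scale (adjusted p = 0.00915 by limma, SE 0.089), and its call held with each library left out in turn, with an adjusted p of 0.0337 to 0.0468. It was lost, though, with Ballgown's model (adjusted p = 0.144) and with the replicate block (adjusted p = 0.137 by limma), settings that called few or no rows of the whole table. Among the genes of the wider list TLE1 had the lowest p by limma.

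TLE3 fell. It had 0.937, 1.08 and 1.08 FPKM in HCC827/GR and 1.92 and 2.38 FPKM in HCC827 cells, a log2 change of -0.63 (adjusted p = 0.0391 by limma, SE 0.12). TLE4 rose, with 1.00, 0.674 and 0.882 FPKM in HCC827/GR and 0.0204 and 0.0491 FPKM in HCC827 cells, a log2 change of 0.84 (adjusted p = 0.0369 by limma, SE 0.15). TLE4 reached the mean of 0.5 FPKM only through HCC827/GR cells, and the size of its change depended on the scale, with a log2 change of 2.81 at a pseudocount of 0.1 and a ratio of the mean FPKM of 24.5. Both calls were lost when any 1 library was left out, where calls over the whole table fell as well. They were also lost with no filter, at an adjusted p of 0.0912 for TLE3 and 0.0620 for TLE4 by limma. That of TLE3 was lost with quantile normalization too, at 0.0666. TLE2 was below the mean of 0.5 FPKM, with 0.0364 to 0.155 FPKM in HCC827/GR and 0.379 and 0.656 FPKM in HCC827 cells. SPEN, CIR1, CTBP1 and HDAC1, further corepressors, had an adjusted p between 0.374 and 0.799.

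**Figure D4:**
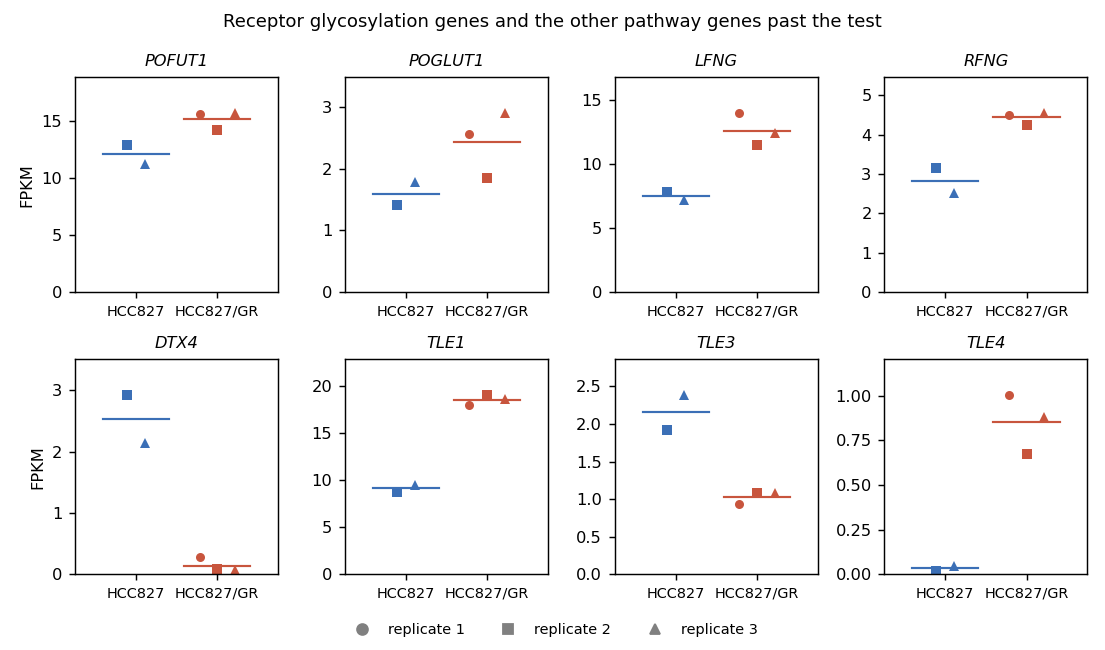
FPKM of the 4 receptor glycosylation genes found and of DTX4, TLE1, TLE3 and TLE4, with 1 point per library and a line at the group mean, each panel on its own axis from 0. The groups are apart in all panels, by the least for POGLUT1, whose closest values are 1.85 and 1.78 FPKM.

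Among the genes of receptor cleavage, 0 of the 8 tested passed the adjusted test, and 7 were higher and 1 lower by their fold change. The share of all rows that were higher by fold change alone was not counted. APH1B, a γ-secretase subunit, had the largest log2 fold change, 0.65 (adjusted p = 0.310 by limma, SE 0.35), with 2.24 and 2.20 FPKM in HCC827/GR replicates 1 and 2 but 0.658 in replicate 3, between the HCC827 values of 0.795 and 0.498. With a pseudocount of 0.1 its log2 change was 1.13. PSEN2 and NCSTN, a catalytic and a structural subunit of the same complex, did not overlap between the groups. PSEN2 had 3.40 to 4.01 FPKM in HCC827/GR and 2.58 and 2.27 FPKM in HCC827 cells (adjusted p = 0.0632), and NCSTN 21.3 to 23.8 FPKM against 18.7 and 17.1 FPKM (adjusted p = 0.141). PSENEN, the remaining subunit, was joined with LIN37 and was not read.

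The nuclear complex showed no call among its 7 tested genes. RBPJ, its DNA-binding subunit, had 7.18, 3.22 and 6.32 FPKM in HCC827/GR and 10.2 and 4.97 FPKM in HCC827 cells. The libraries within each line differed by more than the means of the lines did, and the log2 fold change of -0.37 (adjusted p = 0.623 by limma, SE 0.41) became 0.0837 without HCC827 replicate 2. MAML1 spread from 1.65 to 5.95 FPKM without separating the lines. Of the genes of ligand endocytosis, MIB1, MIB2, NEURL1 and NEURL1B, 0 of 4 passed the adjusted test, and NEURL1 had the largest change, -0.21 (adjusted p = 0.495 by limma, SE 0.17), which was -0.0553 without HCC827 replicate 2 and -0.37 without HCC827 replicate 3. Among the other ligands DNER had the larger change of the 2 tested, -0.12 (adjusted p = 0.728 by limma, SE 0.18), which became 0.0269 without HCC827 replicate 3. DLL3, a ligand of neuroendocrine tumours, had between 0.258 and 0.468 FPKM over all libraries, below the mean needed for the test.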

How the data were processed

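RNA of HCC827/GR (replicates 1, 2 and 3) and HCC827 (replicates 2 and 3) was read from FPKM values, which the authors deposited as 1 table made with Cutadapt, FastQC, Bowtie2, TopHat2, StringTie and Ballgown. The library protocol in the labels (a small RNA kit, single-end) differs from that of the study's methods (mRNA, paired-end), and which applies was not settled. The submitters' processing notes name the build hg18, and versions are not given in the sources used here. A further FPKM column (1) that matched no sample was left out. Positions are those of GENCODE release 29 on GRCh38, matched through Ensembl transcript identifiers, and promoters are from RefSeq (GRCh38.p14). Whether counting used strand is not stated.

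For each symbol the row with the highest mean FPKM was used. limma 3.58.1 in R 4.3.3 was fitted to log2(FPKM + 1) of all rows with a mean of at least 0.5 FPKM, and Python 3.11.15 was used for the rest. The fit was tested on simulated data. Shares were compared with an exact permutation test, over 7 genes since JAG2 had no row. Alternatives were the pseudocount, the filter, the scaling, the trend, Ballgown's model, a replicate block, summed rows and leaving out each library. FPKM gives no read depth, so precision was judged from the replicates alone. Named were the Notch genes, the wider list's genes with a 2-fold change in either direction at an adjusted p under 0.05, and in each role the gene with the largest change. All other genes of the wider list given with values, such as TLE3, TLE4 and RFNG, and single markers were added after their values were seen. The genes and lists were chosen with earlier results of these data known. Of the wider list, 1 gene is in the counts but is not reported here by name.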

Additional observations from a re-analysis of the deposited data

How the results depend on the processing

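Among 256 log2 fold changes of single genes under an alternative, those from the ratio of mean FPKM had no p and were judged by direction alone. Of the 256, 222 kept their direction and, where a p was given, their side of an adjusted p of 0.05. The filter, the trend and, for genes with 1 row, summed rows do not alter a log2 fold change, so its direction was fixed there. Only the 5 called genes of the wider list had a call to lose. The 222 are therefore no measure of how robust the results are. The call was lost in 30 that kept their direction, and 4 changed sign. These were NOTCH2 (0.0151 with the replicate block and without HCC827/GR replicate 1), DNER (0.0269 without HCC827 replicate 3) and RBPJ (0.0837 without HCC827 replicate 2), with ranges over the libraries left out of -0.308 to 0.0151, -0.260 to 0.0269 and -0.827 to 0.0837. In all alternatives 0 Notch genes had an adjusted p under 0.05. At a fold change of 2 and p under 0.05, 1 Notch gene passed in place of 0 with a pseudocount of 0.1 (NOTCH3) and with the replicate block (HES1), and 0 to 1 with each library left out, where an unadjusted p under 0.05 was reached by 0 to 1 in place of 3. The 5 adjusted calls of the wider list became 2 with no filter, 0 with Ballgown's model (7 with an unadjusted p under 0.05 in place of 11), 0 with the replicate block (8 with an unadjusted p) and 1 to 2 with each library left out, TLE1 always and DTX4 in all but the fit without HCC827 replicate 2. A fold change of 2 was passed by 3 genes in place of 1 with a pseudocount of 0.1. It was passed by 1 with each HCC827/GR library left out. Counts over the whole table moved too. At a fold change of 2 and p under 0.05, 480 rows were higher and 643 lower of 16189. With that pseudocount these became 860 and 1024. Adjusted calls went from 851 and 924 of 16189 to 504 and 757 of 36011 with no filter. Ballgown's model gave 4 and 9 of 16189, and leaving out HCC827/GR replicate 1 gave 202 and 287. The NOTCH4 share changed sign, from -0.0117 percentage points to 0.0653 and 0.0579 without HCC827/GR replicate 2 and HCC827 replicate 3, and the JAG1 share from -0.0238 to 0.0203 and 0.287 without HCC827/GR replicate 3 and HCC827 replicate 3. Leaving out a library gave ranges of -0.0813 to 0.0653 and of -0.335 to 0.287 for these shares. The cause of these changes was not tested. The deviations of equally numbered libraries from their group means correlated by 0.0328 and 0.0147. With 2 HCC827 libraries, their deviations mirror each other, so these values are not separate checks. Whether libraries of equal number were paired was not settled by them. Replicate 1 has no HCC827 library, so the block gave the same log2 fold changes as the fit without HCC827/GR replicate 1, though both are counted as alternatives. With the block no row of the whole table had an adjusted p under 0.05. The block leaves less to judge the spread from, so this absence of calls does not bear on pairing. With 1 HCC827 library left, that library was assumed to vary like the others. No interval from read depth could be given.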
